A study of Mus musculus with 8 samples.

Results

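The glucocorticoid receptor gene Nr3c1 and 9 genes known as its targets or partners in muscle were examined in mouse quadriceps after 2 weeks of falling and then low oxygen. Members were all probe sets that the array annotation pairs with exactly 1 of the 10 symbols, which gave 28 of 45101 probe sets, for 10 of 18194 named genes. Total RNA came from the quadriceps of adult male C57Bl/10 mice and was read on Affymetrix mouse expression arrays, 1 array per muscle sample. The 4 hypoxia arrays came from mice in a closed chamber whose oxygen was lowered in the first week, starting at 21%, and was then held at 8% for 7 days. The 4 control arrays came from mice under room conditions for the same 2 weeks. No genotype, drug or hormone treatment is named for either group, and housing in the chamber and the oxygen level cannot be told apart in this design. The labels do not say outright that the muscles of a group came from separate animals, so p-values measure the spread between these samples.

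Glucocorticoids are adrenal steroid hormones that enter cells and bind the glucocorticoid receptor, which a chaperone complex built around heat shock protein HSP90 holds ready in the cytoplasm. The bound receptor moves to the nucleus, binds DNA at glucocorticoid response elements and raises or lowers the transcription of target genes. In skeletal muscle these hormones are known for promoting protein breakdown, glutamine synthesis and release, and resistance to insulin. Inside cells the supply of active hormone depends on the enzyme encoded by Hsd11b1, which regenerates active corticosterone from its inert keto form.

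After hypoxia the receptor transcript was lower and the transcripts of 6 members were higher, by each gene's brightest probe set. Over all 13258 genes so read 14.0% rose and 17.8% fell. Fkbp5, Cebpd, Pik3r1, Klf15, Hsd11b1 and Glul rose by between 2.48-fold and 6.49-fold, and Nr3c1 fell by 0.61 on the log2 scale. Tsc22d3, Cebpb and the brightest probe set of Zbtb16 did not pass the test. Each change is the mean log2(signal + 16) of hypoxia less that of control, its standard error (SE) comes from limma, and a gene passed where the adjusted p was under 0.05. Of the 28 member probe sets 26 passed a filter on dim signals, and of these 12 rose, 5 fell and 9 did not pass. Of all 27023 probe sets tested 28.8% passed, 12.5% as higher and 16.4% as lower. The groups did not overlap in 12 of the 26 tested member probe sets, against 30.1% of all those tested. The median change of the tested member probe sets was 0.53, against -0.04 over all tested. In 6 genes, Fkbp5, Klf15, Cebpd, Pik3r1, Glul and Hsd11b1, every tested probe set rose. Klf15 and Hsd11b1 have only 1 probe set each, and Fkbp5 and Pik3r1 each have 1 more that was below the filter. The share of all genes with such agreement was not counted. These genes were listed with earlier results of the same arrays known, so their shared direction is a description.

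**Figure D1:**
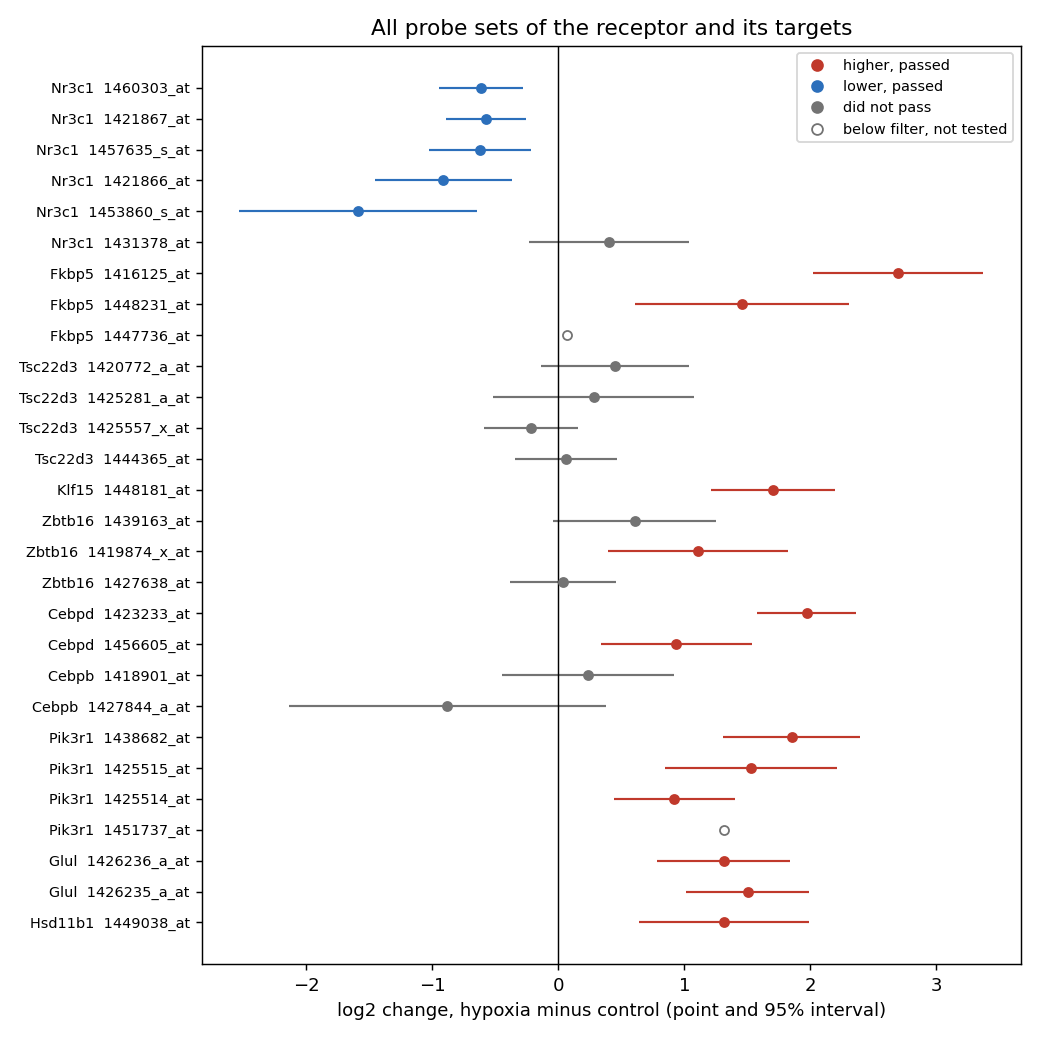
Log2 change of hypoxia minus control (horizontal axis) for each of the 28 member probe sets (rows), with 95% intervals from limma. Of the 26 tested probe sets 12 lie to the right as higher, 5 of Nr3c1 lie to the left as lower, and the 2 open circles were below the filter.

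The arrays themselves differed in ways that bear on these genes. The deposited scaling gave each array a trimmed mean of 500.0, and the median signal was 128 to 151 in hypoxia and 144 to 165 in control. Broken RNA raises the 3' over 5' ratio of control transcripts. For Gapdh this ratio was 3.44 in hypoxia 1, against 0.801 to 0.874 in hypoxia 2 to 4, and 0.776 to 0.807 in control (exact permutation test, two-sided, p = 0.0571, where the smallest possible p is 0.0286). The beta-actin ratio was 2.53 in hypoxia 1, against 1.40 to 1.59 in hypoxia 2 to 4, and 1.09 to 1.25 in control (exact permutation p = 0.0286). RNA quality thus moved with the groups, and its part in the member changes was not tested. All 7 myofibre markers, among them Acta1 and Ckm, were detected and fell, with a summed signal of 212322 to 281442 in hypoxia and 353656 to 430335 in control. All 6 fibroblast markers fell as well, with sums of 13994 to 18405 in hypoxia and 48101 to 53465 in control. The part of these shifts in the changes of Nr3c1 and the other members was not tested. In whole muscle, fewer cells of a type and less RNA per cell cannot be told apart.

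Promoter sequences are shown for 3 members whose data differ: Fkbp5, which had the largest rise, Hsd11b1, which rose and whose window holds C/EBP-type letters, and Tsc22d3, which did not pass. RefSeq promoter windows of GRCm38.p6, 250 bases before to 50 after a transcript start, matched 7 of the 10 genes with 10 windows. The canonical receptor element, GNACA and TGTNC set 3 bases apart, which reads the same on both strands, was in none of these 10 windows and in 0.475% of all 32851 windows. A single arm of that element, AGAACA on either strand, was in 1 of the 10, a Tsc22d3 window, against 19.0% of all. A C/EBP-type sequence, TTNNGNAA on either strand, was in 2 of the 10, those of Hsd11b1 and of 1 Pik3r1 start, against 40.7% of all. Capitals mark these matches, of which none overlapped another, and each window is written 5′ to 3′ on the gene's own strand.
Fkbp5, chr17:28486100-28486399, minus strand: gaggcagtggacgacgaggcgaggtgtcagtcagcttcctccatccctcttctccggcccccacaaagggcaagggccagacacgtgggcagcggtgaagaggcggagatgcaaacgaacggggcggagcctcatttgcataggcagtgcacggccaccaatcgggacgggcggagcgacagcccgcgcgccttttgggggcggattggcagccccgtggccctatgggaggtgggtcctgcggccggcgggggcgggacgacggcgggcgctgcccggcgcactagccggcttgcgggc
Hsd11b1, chr1:193242311-193242610, minus strand: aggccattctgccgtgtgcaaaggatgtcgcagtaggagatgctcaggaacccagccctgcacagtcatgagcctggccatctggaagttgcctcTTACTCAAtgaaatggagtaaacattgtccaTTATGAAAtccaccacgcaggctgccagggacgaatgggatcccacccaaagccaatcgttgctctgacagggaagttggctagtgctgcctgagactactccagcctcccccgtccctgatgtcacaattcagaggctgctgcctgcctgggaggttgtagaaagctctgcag
Tsc22d3, chrX:140600473-140600772, minus strand: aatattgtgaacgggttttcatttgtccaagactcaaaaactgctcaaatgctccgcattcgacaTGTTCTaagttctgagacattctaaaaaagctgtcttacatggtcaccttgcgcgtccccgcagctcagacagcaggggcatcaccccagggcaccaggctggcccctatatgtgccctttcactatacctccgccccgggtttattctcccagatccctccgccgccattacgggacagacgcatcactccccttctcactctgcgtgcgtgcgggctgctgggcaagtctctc
The Hsd11b1 matches begin 155 and 124 bases before the transcript start, and the Tsc22d3 match 185 bases before. The windows describe letters only, and elements outside them were not searched.

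Nr3c1 encodes the glucocorticoid receptor, a nuclear receptor and transcription factor. Its brightest probe set, 1460303_at, had signals of 2663, 1764, 1877 and 2115 in hypoxia 1 to 4, against 3422, 3177, 2964 and 3179 in control 1 to 4. Every hypoxia array was below every control array, and hypoxia 1 lay nearest to control. Means were 2104 ± 399.8 in hypoxia and 3186 ± 187 in control (SD, n = 4 each), a change of -0.61 ± 0.15 (SE, adjusted p = 0.01 by limma). A further probe set of similar behaviour, 1421867_at, had signals of 2346, 1659.5, 2035 and 2147 in hypoxia and 3092, 3256, 2824 and 2964 in control. These groups also stood apart, and the change was -0.57 ± 0.14 (adjusted p = 0.0102).

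The other Nr3c1 probe sets did not all move together. Changes were -0.62 for 1457635_s_at, -0.91 for 1421866_at and -1.59 for 1453860_s_at, and all 3 passed. The last was -1.05 (adjusted p = 0.00539) without hypoxia 2, the lowest array. The groups of 1457635_s_at, whose suffix marks probes shared by related transcripts, overlapped, with hypoxia 1 at 1822 and control 2 at 1714. Its call was lost when any of hypoxia 2, 3 or 4 or control 3 or 4 was left out, with adjusted p between 0.0552 and 0.0832. The call of 1421866_at was lost without control 2 (adjusted p = 0.0519). Its change was -0.67 without hypoxia 1, its lowest array and the one with the raised 3' to 5' ratios. Probe set 1453860_s_at was dim, with 137, 21.0, 155 and 161 in hypoxia and 383, 314, 285 and 339 in control, and its fold rests on values near the filter, which lay at a signal of about 90.2. Probe set 1431378_at, annotated to the same accession as 1453860_s_at, changed by 0.40 (95% interval -0.23 to 1.03) and did not pass. The 2 dimmest Nr3c1 probe sets therefore gave opposite signs, and the difference between probe sets was not tested.

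Hsd11b1, whose enzyme raises active hormone within the cell, rose. Its only probe set had signals of 7687, 6357, 5049.8 and 2276 in hypoxia, against 1921, 1879, 2567 and 1538 in control. The hypoxia arrays spread widely, and hypoxia 4 lay below control 3, so the groups overlapped. Means were 5343 ± 2311 in hypoxia and 1976 ± 429 in control (SD, n = 4 each), a 2.49-fold rise (log2 change 1.32 ± 0.31, adjusted p = 0.0069). H6pd, whose enzyme supplies the cofactor for this reaction in the endoplasmic reticulum, rose 2.18-fold, with 2809.6, 2652, 2507 and 1676 in hypoxia and 1230.3, 1343, 878 and 918 in control. Those groups did not overlap. Hsd11b2, which inactivates the hormone, changed by 0.01 ± 0.25 and did not pass. Nr3c2, the mineralocorticoid receptor that binds the same hormone, fell by 0.72 on the log2 scale, and Esr1, an oestrogen receptor, fell by 1.06. Of the related receptors and supply genes, 1 of 4 tested rose and 2 fell (75% called, against 31.9% of all genes). Adipocytes also express Hsd11b1 and Glul, and all 4 tested adipocyte markers (Adipoq, Retn, Cidec and Fabp4) fell. Their summed signal was 17481 to 26746 in hypoxia and 29351 to 61874 in control, Lep stayed below the filter, and the part of fat cells in these results was not tested.

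Fkbp5 had the largest change of the 10 genes by the brightest probe sets. It encodes an immunophilin of the receptor's chaperone complex that lowers hormone binding, and its induction is a classical feedback of the receptor. Probe set 1416125_at had signals of 8164, 7971, 7882 and 7696 in hypoxia, against 1166, 950.0, 2711 and 703 in control. The hypoxia arrays lay within a narrow band, while control 3 stood above the other controls and still well below hypoxia. Means were 7928 ± 194 in hypoxia and 1383 ± 906 in control, a 6.49-fold rise (log2 change 2.70 ± 0.31, adjusted p = 4.95e-05). Probe set 1448231_at, annotated to the same accession, had signals of 952, 2389.8, 3180.0 and 2326 in hypoxia and 622, 515, 1594 and 545 in control. Hypoxia 1 fell below control 3 there, and the rise was 2.75-fold (log2 change 1.46 ± 0.39, adjusted p = 0.0139). Without hypoxia 1, the array with the raised 3' to 5' ratios, that change was 1.82, without control 3 it was 1.83, and without both it was 2.19. The third probe set, 1447736_at, was below the filter, at 60.1 ± 38.5 in hypoxia and 56.4 ± 39.7 in control.

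**Figure D2:**
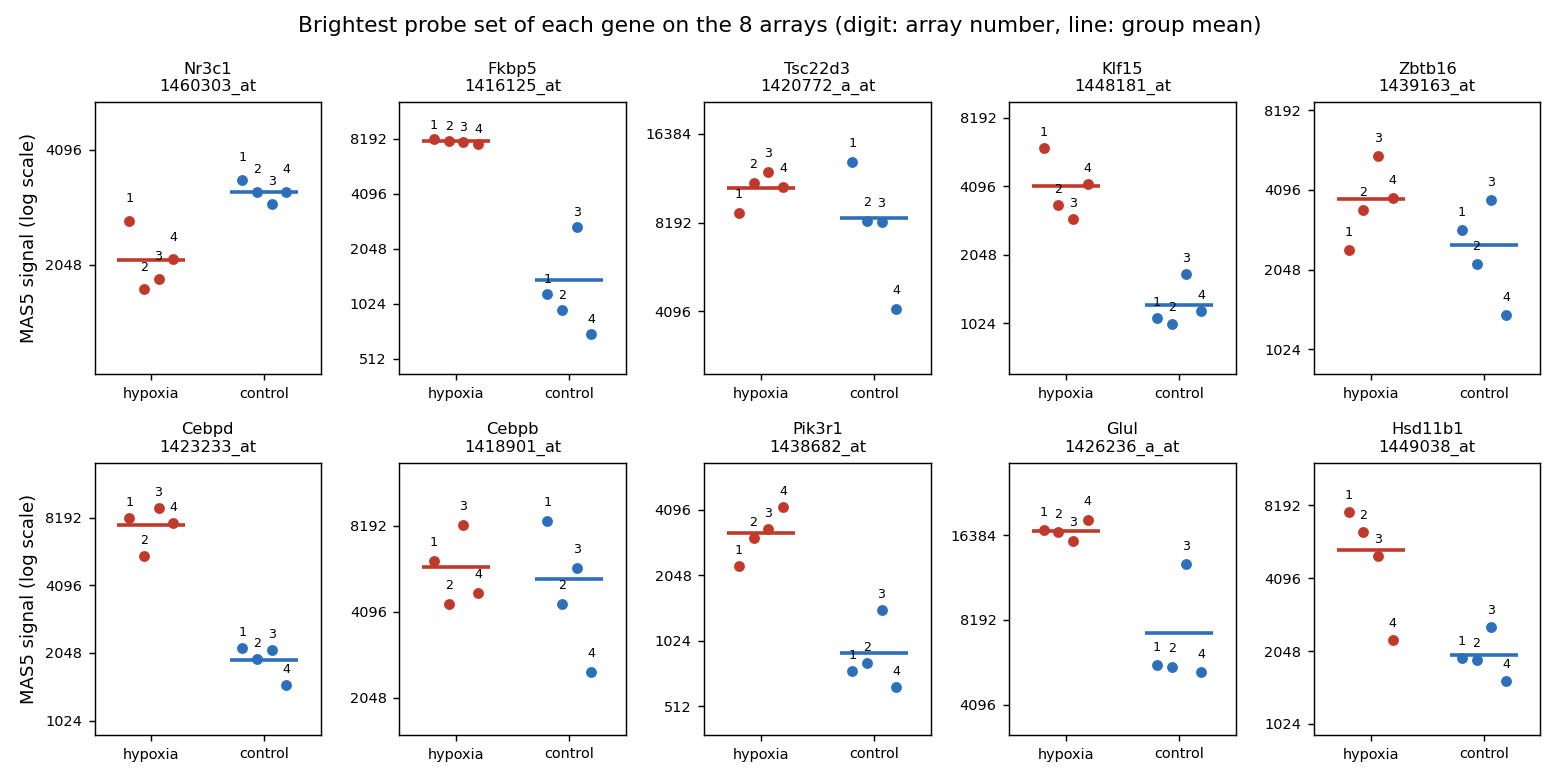
MAS5 signal on a log axis for the brightest probe set of each of the 10 genes, hypoxia left and control right, with the array number beside each point and a line at the group mean. Fkbp5 lies between 7696.0 and 8164 in hypoxia and between 703 and 2711 in control, while Tsc22d3 and Cebpb overlap between the groups.

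Among the transcription factors, Klf15 and Cebpd rose and Cebpb did not pass. Klf15, a Krüppel-like factor that drives amino acid breakdown in muscle, had signals of 6005, 3368, 2933 and 4176 in hypoxia and 1075, 1019, 1680.1 and 1155 in control. Hypoxia 1 was the highest of all arrays, and the groups did not overlap. The rise was 3.26-fold (log2 change 1.70 ± 0.23, adjusted p = 0.00015), and without hypoxia 1 the log2 change was 1.50. Cebpd, a C/EBP factor induced by glucocorticoids and by inflammatory cytokines, had signals of 8129.5, 5508, 9003 and 7747 in hypoxia and 2151, 1921, 2109 and 1474 in control on 1423233_at. All 4 hypoxia arrays exceeded every control array by a wide margin, with a log2 change of 1.97 ± 0.18 (adjusted p = 8.66e-06). Its dimmer probe set, 1456605_at, had 375 ± 65.7 in hypoxia and 197 ± 73.1 in control, a change of 0.94 ± 0.28 (adjusted p = 0.0231). That call was lost without hypoxia 3, hypoxia 4 or control 3, with adjusted p of 0.0558, 0.0574 and 0.0510.

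Cebpb encodes the C/EBP relative that is also tied to glucocorticoid-driven muscle wasting. Probe set 1418901_at had signals of 6153, 4370.4, 8239 and 4771 in hypoxia and 8532, 4369, 5838 and 2527 in control. The ranges overlapped almost fully, and the change of 0.23 (95% interval -0.45 to 0.92) did not pass. Probe set 1427844_a_at was at 118 in hypoxia 1, between 577 and 1631 in the other hypoxia arrays and between 587 and 1649 in control. Its change of -0.88 ± 0.58 did not pass. It was -0.22 (adjusted p = 0.723) without hypoxia 1, the array with the raised 3' to 5' ratios, and -1.43 (adjusted p = 0.0467) without hypoxia 3, so it rests on single arrays. Among other C/EBP genes and partners, Cebpa, a factor of adipocytes and liver, fell by 1.75, and Atf4, a stress factor that pairs with C/EBP proteins, rose by 0.46. The Cebpa groups overlapped, with hypoxia 3 at 300 and control 4 at 215. Hypoxia 1 and 2, at 60.6 and 46.1, were below the filter's signal, and control 3 was the highest array at 860. Ddit3 (-0.44) and Nfil3 (-0.42) did not pass. Thus 1 of 5 tested genes of that list rose and 1 fell (40% called, against 31.9% of all genes). Both C/EBP members are also expressed in myeloid cells. Of the neutrophil markers 3 of 5 tested rose (S100a8, S100a9 and Ngp), with summed signals of 3197 to 5954 in hypoxia and 445 to 1001 in control. Mpo and Mmp8 stayed below the filter. Of 8 macrophage markers 1, Cd68, rose and 2, Csf1r and Adgre1, fell, with sums of 9337 to 16690 in hypoxia and 10109 to 15024 in control. The part of these cells in the Cebpd result was not tested.

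Zbtb16, also called PLZF, is a zinc finger repressor strongly induced by glucocorticoids in many tissues, and its probe sets gave different results. Probe set 1439163_at had signals of 2429.7, 3434, 5499.7 and 3812 in hypoxia and 2896, 2151, 3762 and 1377 in control. The groups overlapped, and the change of 0.61 (95% interval -0.04 to 1.25) did not pass. It passed when hypoxia 1 and control 3 were both left out (1.02, adjusted p = 0.0153), an alternative chosen after the data were seen, and was 0.34 (adjusted p = 0.399) without control 4. Probe set 1419874_x_at, whose suffix marks probes that can bind other transcripts, had signals of 6036, 1777, 2441 and 2076 in hypoxia and 1001, 1119, 1850.3 and 1174 in control. Hypoxia 1 stood far above the others and hypoxia 2 lay below control 3, with a change of 1.11 ± 0.33 (adjusted p = 0.0232). That value was 0.73 without hypoxia 1, and the call was lost without control 1, 2 or 4, with adjusted p of 0.0655, 0.0606 and 0.0578. Probe set 1427638_at, at 0.04, did not pass, so the change of Zbtb16 is uncertain. T lymphocytes express Zbtb16 in some subsets, and of 6 T lymphocyte markers 2, Cd3g and Cd8a, were above the filter and neither passed. The summed signal of these 2 was 551.5 to 667 in hypoxia and 647 to 859 in control, and their part in the Zbtb16 values was not tested.

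Tsc22d3 encodes GILZ, a leucine zipper protein that carries part of the anti-inflammatory action of glucocorticoids. Its brightest probe set, 1420772_a_at, had signals of 8852, 11153, 12177 and 10806 in hypoxia and 13162, 8278, 8236 and 4178 in control. Control 1 was the highest of all 8 arrays and control 4 the lowest, so the hypoxia values lay inside the control range. The change was 0.45 with a 95% interval of -0.14 to 1.03, which holds values from a small fall to about a doubling. It was 0.70 (adjusted p = 0.0522) without control 1 and 0.15 (adjusted p = 0.645) without control 4, so its size rests on those arrays. The other 3 probe sets changed by 0.28, -0.22 and 0.06, and none of the 4 passed (adjusted p between 0.247 and 0.848). Among its relatives Tsc22d1 rose by 0.79, with 4 of its 5 other probe sets also rising.

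Pik3r1 and Glul connect the receptor to insulin signalling and amino acid metabolism. Pik3r1 encodes the main regulatory subunit of phosphoinositide 3-kinase, which in excess dampens insulin signalling. Probe set 1438682_at had signals of 2263, 3035, 3359 and 4225 in hypoxia and 743, 808, 1425 and 632 in control. The groups stood apart, with control 3 the nearest control, and the rise was 3.61-fold (log2 change 1.85 ± 0.25, adjusted p = 0.000163). Probe set 1425515_at had signals of 565, 949, 1223 and 1458 in hypoxia and 307, 309, 579 and 222 in control. Control 3 lay just above hypoxia 1 there, and the change was 1.53 ± 0.32 (adjusted p = 0.00307). Probe set 1425514_at rose by 0.92 ± 0.22 without overlap. The dim probe set 1451737_at, at 150.5 ± 115 in hypoxia and 39.6 ± 16.5 in control, was below the filter.

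Glul encodes glutamine synthetase, the enzyme by which muscle makes the glutamine it exports. Probe set 1426236_a_at had signals of 17039, 16741, 15632 and 18511 in hypoxia, against 5653, 5562, 12896 and 5329 in control. Hypoxia values were close together, and control 3 stood well above the other 3 controls yet below every hypoxia array. The rise was 2.48-fold (log2 change 1.31 ± 0.24, adjusted p = 0.00152), and 1.62 on the log2 scale without control 3. Probe set 1426235_a_at had signals of 5499, 8136, 6264 and 7220.3 in hypoxia and 1729, 2219, 3884 and 2071 in control. Control 3 was again the highest control, and the change was 1.50 ± 0.23 (adjusted p = 0.000358).

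For most member probe sets that rose, control 3 was the control array nearest to hypoxia. It was the highest control in 5 of the 6 genes that rose by their brightest probe set, and in 9 of the 12 member probe sets that rose. It was the lowest control for Cebpd 1456605_at (100.7) and Pik3r1 1425514_at (178.3), which also rose. Over all 28 member probe sets, whichever way they changed, it was the highest control in 13 (46.4%). Among all tested probe sets control 3 was the highest control in 23.9%. Against the mean of the other 3 controls its signal was 2.89 times as high for Fkbp5, 2.34 for Glul, 1.96 for Pik3r1, 1.76 for Zbtb16, 1.55 for Klf15 and 1.44 for Hsd11b1. The ratio was 0.909 for Nr3c1, 0.964 for Tsc22d3 and 1.14 for Cebpd. Control 3 was also the highest array for adipocyte markers, with a sum of 61874 against 29351 to 38669 in the other controls, and their part in its member values was not tested. Without control 3 all 6 genes that rose still did, with log2 changes of 3.08 for Fkbp5, 2.09 for Pik3r1, 2.02 for Cebpd, 1.86 for Klf15, 1.62 for Glul and 1.45 for Hsd11b1.

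**Figure D3:**
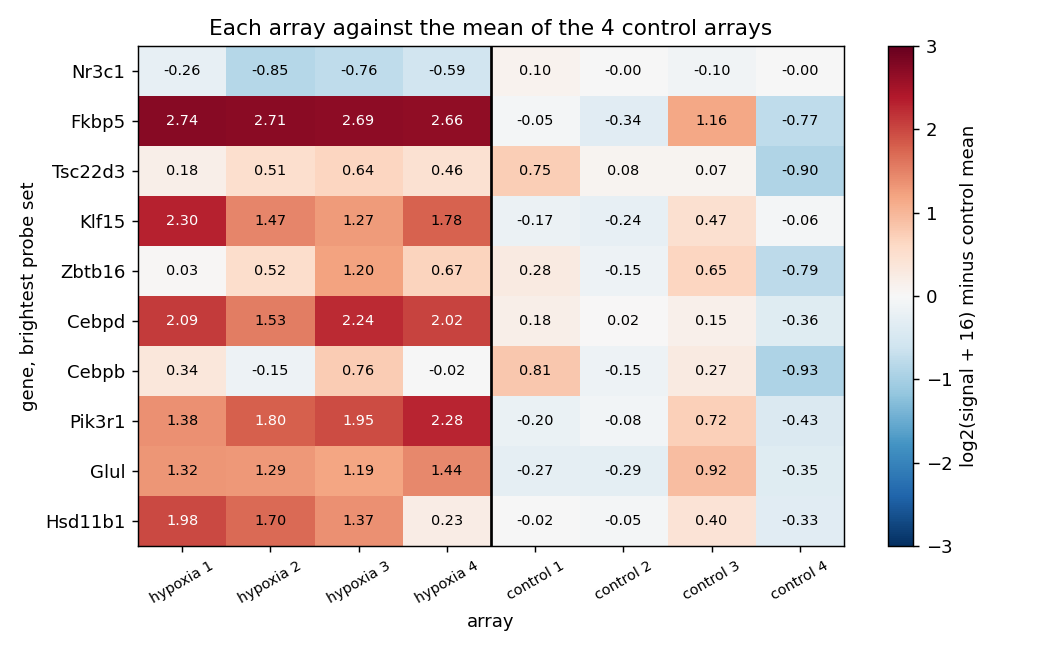
Log2(signal + 16) of each array minus the mean of the 4 control arrays, for the brightest probe set of each gene (rows), hypoxia arrays left of the line and control arrays right. Fkbp5 is even across the hypoxia arrays at 2.66 to 2.74 and reaches 1.16 in control 3, whereas Hsd11b1 runs between 0.23 in hypoxia 4 and 1.98 in hypoxia 1.

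Other genes of the pathway were counted by their brightest probe set in 9 lists, of which 110 of 130 genes were tested, and their changes are on the log2 scale. Over these lists 25 genes rose and 23 fell, so 43.6% passed, against 31.9% of all genes. Of 11 tested genes of the receptor's chaperone system 6 fell and 1 rose (63.6% called, against 31.9% of all genes). Their median was -0.91, against -0.04 over all genes. Of all 25 tested probe sets of this list 10 fell and 1 rose, against 16.4% and 12.5% of all those tested. Stub1, a ubiquitin ligase of the chaperone system, fell by 1.24, and Cdc37, an HSP90 co-chaperone, fell by 1.34. Fkbp4, the relative of Fkbp5 that favours hormone binding, had signals of 519, 668, 812 and 813 in hypoxia and 1342, 1460.0, 1705 and 1739 in control. The groups did not overlap and the fall was 1.15 on the log2 scale, although a second probe set, at -0.21, did not pass. Stip1, which joins HSP70 to HSP90, fell by 0.97. The 1 rise was Hsp90aa1, the stress-inducible HSP90 (0.59 ± 0.18, adjusted p = 0.0286), named after its value was seen. Its 3 other probe sets were at 0.12, -0.35 and -0.42 without passing, so its direction is uncertain.

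Receptor coregulators were called about as often as genes at large. Of 13 tested 3 rose and 1 fell (30.8% called, against 31.9% of all genes), with a median of 0.04. The histone acetyltransferase gene Crebbp rose by 1.02, but another of its probe sets fell by 0.68 on the log2 scale, so its direction is uncertain. Med1, a Mediator subunit that contacts nuclear receptors, rose by 1.07, while its 3 other probe sets changed by between -1.29 and 1.02 without passing. Smarca4, the chromatin remodelling ATPase, rose by 0.41 with an adjusted p of 0.0497, but its other probe set was at -0.15 without passing. The histone deacetylase gene Hdac3 fell by 0.66.

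Several other genes known to be induced by glucocorticoids rose. Of 24 tested 9 rose, 1 fell and 14 did not pass (41.7% called, against 31.9% of all genes). Of all genes 14.0% rose and 17.8% fell. The median of the list was 0.61, against -0.04 over all genes. Sesn1, a stress-induced inhibitor of the growth kinase complex mTORC1, had signals of 19537, 13271, 9281 and 12385 in hypoxia and 881, 724, 1409 and 1499 in control. Its rise was 3.59 ± 0.26 on the log2 scale (adjusted p = 1.46e-06), and its 3 other probe sets rose too. Mt2, a metal-binding metallothionein, rose by 3.50, Cdkn1a, the cell cycle inhibitor p21, by 2.82, and Eif4ebp1, a repressor of translation, by 2.73. The 1 fall was Bcl6, a transcriptional repressor (-1.55 ± 0.18), named after its value was seen. Sgk1 (-0.06), Klf9 (0.16), Per1 (0.96) and Dusp1 (-1.04), widely used receptor targets singled out afterwards, were among the 14 that did not pass by their brightest probe sets. Of 6 other Klf9 probe sets 1 rose, by 0.62, and the rest did not pass. The remaining rises were Mt1 (3.57), Cblb (1.05), Trim63 (1.03), Foxo1 (0.88) and Foxo3 (0.82), also named after their values were seen. Other Cblb probe sets, at 0.46 and 0.37, did not pass. Nfkbia (0.65) and Fbxo32 (0.26), named likewise, did not pass by their brightest probe sets. The other Nfkbia probe sets rose, and Fbxo32 had another that rose (1.84) and another that did not pass (1.11). Several genes of this list, such as Cdkn1a and the metallothioneins, also answer to other signals.

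Amino acid and insulin signalling genes belong to the fields of Klf15, Glul and Pik3r1. In the list of amino acid breakdown and transport 1 of 15 tested genes rose and 4 fell, with a median of -0.25, and its 33.3% called is close to the 31.9% of all genes. Bckdk, the kinase that restrains branched-chain amino acid breakdown, fell by 1.83, and Slc38a3 and Slc1a5, carriers of glutamine, fell by 1.16 and 0.76. Another Slc1a5 probe set changed by 0.55 without passing, so that gene is uncertain. The rise was Slc7a5, a large neutral amino acid carrier, at signals of 246, 668, 544 and 99.0 in hypoxia and 155, 26.6, 138 and 22.6 in control. Those groups overlapped, and controls 2 and 4 were below the filter's signal. In insulin signalling 6 of 12 tested genes rose and 2 fell (66.7% called, against 31.9% of all genes), with a median of 0.42. That share holds for the brightest probe sets only. Of all 24 tested probe sets of the list 6 rose and 2 fell, against 12.5% and 16.4% of all those tested. Pdpk1, the kinase that activates AKT, had signals of 4871, 4881, 5235 and 4630.1 in hypoxia and 2250.0, 1796, 2155 and 2076 in control and rose by 1.24, with another probe set at -0.03. Akt1 rose by 2.45 on its brightest probe set, but 2 others changed by -0.59 and -0.04 without passing, and Pik3cd rose by 0.67 with others at 0.89 and -0.44. The changes of Pdpk1, Akt1 and Pik3cd are therefore uncertain. Irs1, the insulin receptor substrate bound by Pik3r1, fell by 0.91 (3160.2, 3555, 3773 and 1947 in hypoxia, 6359, 7069.6, 4297 and 5366 in control).

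Inflammatory genes that glucocorticoids are known to repress mostly did not pass. Of 10 tested 1 rose and none fell by the brightest probe sets (10% called, against 31.9% of all genes), with a median of 0.30. A further 2 genes of the list were below the filter. Several tested ones were dim. Tnf averaged 80.55 in hypoxia, and Ccl2 was at 74.3 and 37.2 in controls 3 and 4, under the filter's signal of about 90.2. The low share of calls therefore does not show that these genes were unchanged. Dimmer probe sets of Ptgs2, the inducible cyclooxygenase, and Vcam1, an adhesion molecule, fell by 1.99 and 1.56 on the log2 scale, and both genes were named after their values were seen. Their brightest probe sets, at -0.59 and -0.44, did not pass, so the change of both is uncertain. The rise was Cxcl10, an interferon-induced chemokine (2.07 ± 0.31, adjusted p = 0.000319). Tnf changed by -1.17, Ccl2 by 1.49 and Icam1 by 0.55. All 3 had adjusted p above 0.05, at 0.0599, 0.13 and 0.219. Among relatives of Tsc22d3, Fkbp5 and Klf15, 2 of 16 tested genes rose and 6 fell (50% called, against 31.9% of all genes). The median of these relatives was -0.18. Fkbp8 fell by 2.46, Fkbp9 fell by 1.12 and Klf10, a growth-inhibitory Krüppel-like factor, rose by 1.61. For Fkbp8 hypoxia 1 and 2, at 68.8 and 89.9, were under the filter's signal, so the size of its fall rests on dim values.

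**Figure D4:**
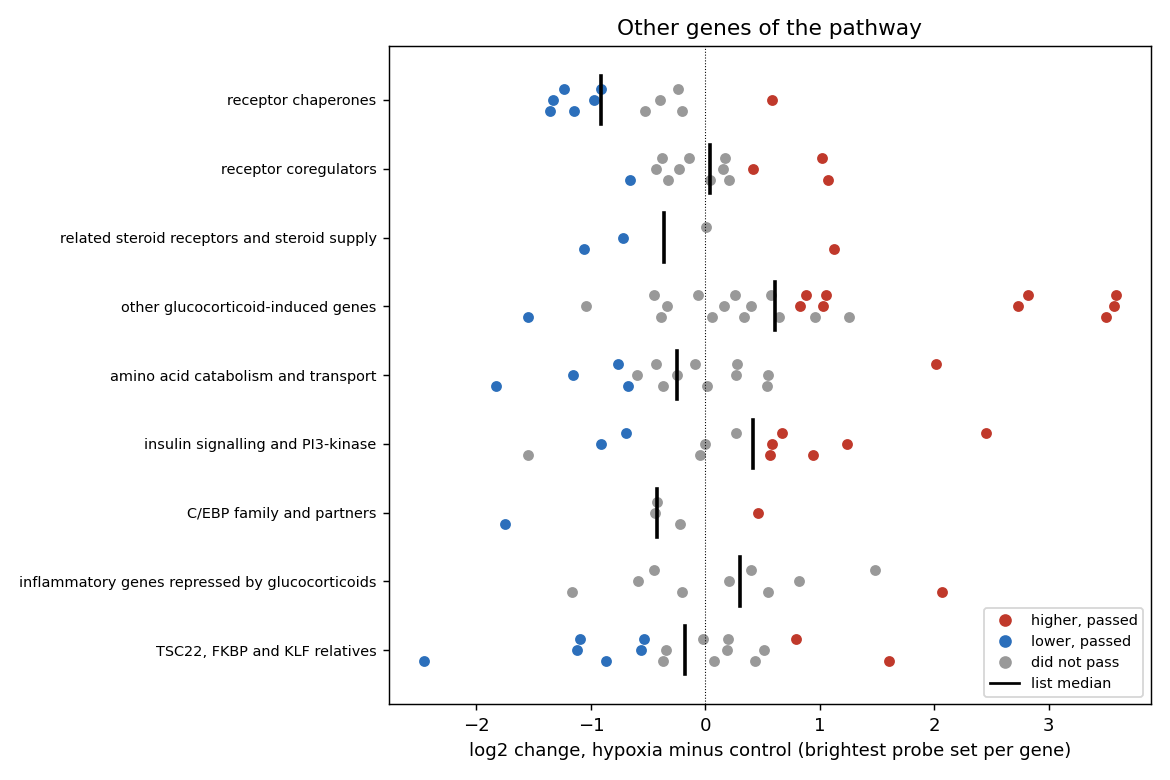
Log2 change of hypoxia minus control (horizontal axis) for the tested genes of the 9 lists (rows), each by its brightest probe set, coloured by outcome, with a black line at the list median. The median is -0.91 for the receptor chaperones and 0.61 for other glucocorticoid-induced genes.

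Profiles most like that of Nr3c1 were sought among 13258 genes by the root-mean-square distance between log2 profiles over the 8 arrays after each gene's mean was subtracted. The nearest 5 were Etl4 (distance 0.07), Ift27 (0.09), Mtus1 (0.09), Ifi213 (0.10) and Mapre1 (0.10), against a median distance of 0.50. Their log2 changes were -0.67, -0.52, -0.65, -0.72 and -0.47, and 4 of the 5 passed, Ifi213 being the exception (adjusted p = 0.0695). Of all genes 31.9% passed. The distance takes in the difference between hypoxia and control, so changes close to that of Nr3c1 follow from how these genes were selected. No correlation is given, since the arrays fall into 2 separate groups.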

How the data were processed

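The deposited table holds linear signal intensities, 1 per probe set and array, computed with MAS5 per the submitters' processing notes. All arrays had the same trimmed mean, so the deposited intensities were already scaled. The MAS5 version was not given in the sources used here. No further normalization was applied. Tests used log2(signal + 16), a scale on which folds of dim probe sets are understated. The 64 control probe sets were removed, then the dimmest 40% by mean log2, and 27023 were kept. Hypoxia was compared with control by limma 3.58.1 in R 4.3.3 (lmFit, eBayes with an intensity trend, no block, two-sided), with Benjamini-Hochberg adjustment over all 27023. Fold is 2 to the absolute log2 change. For gene counts each of 13258 genes took its brightest probe set, with the same adjusted p.

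Gene symbols came from the platform annotation, where 34958 probe sets have 1 symbol, 932 several and 9211 are unlisted, and 99.4% of those with 1 symbol matched GRCm38.p6 RefSeq genes. Promoter sequences are RefSeq's. The rule named all 10 members, up to 4 genes per list with the smallest p, and the 5 profiles nearest to Nr3c1. Hsp90aa1, Bcl6, Sgk1, Klf9, Per1, Dusp1, Ptgs2, Vcam1, Ddit4 and Mt1 fall outside it and were chosen after their values were seen. The same holds for Trim63, Cblb, Foxo1, Foxo3, Nfkbia and Fbxo32. Members and lists were chosen with earlier results of these data known. The fit was also tested on 27023 simulated probe sets, few of them changed. It recovered 0 of 46 with an absolute log2 change of 0.5, 14 of 47 at 1, 32 of 39 at 2 and 36 of 36 at 4. It also called 2 unchanged ones. In the real data 28.8% passed, so these shares do not carry over directly. A gene that did not pass is not shown to be unchanged. The number of arrays limits the precision. No 2 arrays were identical, and r across tested probe sets was 0.920 to 0.952 within hypoxia, 0.943 to 0.952 within control and 0.849 to 0.890 between groups. Alternatives were quantile normalization, median centring, other pseudocounts and filters, 1 probe set per gene, eBayes without trend or robust, array weights, a replicate block and leaving out each array.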

Additional observations from a re-analysis of the deposited data

Results flagged for a closer look

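In 3 of 56 sets of 4 arrays of 1 member probe set, a single array lay far from the other 3 for the width of its group by Dixon's test at the 95% level. Chance gives about 1 in 20. Nr3c1 probe set 1453860_s_at was at 21.0 in hypoxia 2, against 137 in the nearest hypoxia array (gap ratio 0.907). Fkbp5 probe set 1448231_at was at 1594 in control 3, against 622 in the nearest control array (gap ratio 0.834). Glul probe set 1426236_a_at was at 12896 in control 3, against 5653 in the nearest control array (gap ratio 0.933).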

How the results depend on the processing

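The counts of member probe sets that rose (12) and fell (5) stayed within 1.5 times under all alternatives except 1 probe set per gene, which leaves 6 and 1 by construction and 1959 higher and 2489 lower of all genes. Leaving out each array gave 11 to 12 higher and 4 to 5 lower among members, 2616 to 3379 higher and 3481 to 4699 lower among all probe sets, and 20 to 28 higher and 15 to 25 lower in the 9 lists, the 15 without hypoxia 2. Replicate numbers did not pair the arrays (correlations of same-numbered deviations -0.07 to 0.01), and with the replicate block 12 members rose and 5 fell. Of 542 values of single member probe sets under an alternative, 520 kept direction and call, 16 lost the call, 2 gained it and 4 reversed, none of the 4 passing either way. These were Zbtb16 1427638_at without hypoxia 2 and without control 2 (-0.079 to 0.155 over all arrays left out), Tsc22d3 1444365_at without control 2 (-0.019 to 0.136), and Cebpb 1418901_at without control 4 (-0.077 to 0.506). The cause was not tested. The brightest probe sets of Nr3c1, Fkbp5, Klf15, Cebpd, Pik3r1, Glul and Hsd11b1 passed in all 20 alternatives, Nr3c1 between -0.76 and -0.53. Median centring ended the call of Nr3c1 1457635_s_at (-0.54, adjusted p = 0.0837), as did eBayes without trend (adjusted p = 0.0527), which also ended that of Zbtb16 1419874_x_at (adjusted p = 0.0513). Without a filter the dim probe sets Fkbp5 1447736_at and Pik3r1 1451737_at had adjusted p of 0.956 and 0.128. Higher calls made up 43.2% of all calls on the deposited scale, 50% after quantile normalization and 50.2% after median centring, and both moved the median change of all probe sets to 0.04.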

Other observations

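Control 1 was the highest control for many other glucocorticoid-induced genes. Among the 24 tested genes of that list, by brightest probe set, this held in 13 (54.2%), while control 3 was highest in 7. Over all tested probe sets, a count not made per gene, control 1 was the highest control in 30.1%. Its median signal was also the highest of the controls, at 165, against 144 to 150 in the others. The following genes were chosen after their values were seen. Ddit4, a stress-induced inhibitor of mTORC1, had signals of 7564, 5848, 7758 and 11759.7 in hypoxia, against 11935, 1648, 3703 and 1696 in control 1 to 4. Per1, a clock gene that the receptor induces, had signals of 358, 815, 1265 and 1206 in hypoxia, against 1268, 298, 531 and 139 in control. Mt1, a metallothionein, had signals of 44252, 36977, 30981 and 35362 in hypoxia, against 8992, 2677, 2639 and 1379 in control. In each of the 3 genes control 1 was the highest control, as it was for Nr3c1, Tsc22d3, Cebpd and Cebpb among the members by their brightest probe sets, and for Ddit4 and Per1 it exceeded every hypoxia array. Ddit4 (log2 change 1.25, adjusted p = 0.0806) and Per1 (0.96, adjusted p = 0.221) did not pass, and Mt1 rose by 3.57.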
